A study of Homo sapiens with 12 samples.

Results

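The 10 genes described here encode enzymes that remove peroxides or supply their reducing power: the peroxiredoxins PRDX1 to PRDX6, thioredoxin (TXN), the cytosolic thioredoxin reductase TXNRD1 and the glutathione peroxidases GPX1 and GPX4. They were chosen by name as 10 of the 57134 gene rows of the count table, and all 10 were detected in all 12 libraries. The libraries were made from HCT116, a human colon carcinoma line grown in culture, with MATQ-seq, a protocol that amplifies total RNA. The DASHed libraries had passed through scDASH, in which Cas9 cuts library molecules derived from ribosomal RNA (rRNA), and the untreated libraries had not. There were 2 DASHed and 2 untreated mini-bulk libraries, and 4 DASHed and 4 untreated libraries of 1 sorted cell each. All groups came from the same unmodified line, and the labels name no drug or allele.

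Peroxiredoxins reduce hydrogen peroxide with a cysteine that is oxidised in the process, and in most of them thioredoxin then restores it. TXNRD1 recharges thioredoxin with electrons from NADPH. GPX1 and GPX4 use glutathione in place of thioredoxin, and with TXNRD1 they carry selenocysteine, which is encoded by a UGA codon that otherwise ends translation. GPX4 acts on lipid peroxides in membranes and is known for its role in blocking ferroptosis, an iron-dependent form of cell death.

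The coding sequence around the catalytic residue is shown for the 4 closest peroxiredoxins, because they carry nearly the same peptide in different bases and stood at different places in the comparison. The sequences are from GENCODE v29 transcripts, 5′ to 3′ on the coding strand, and capitals mark the codon of the peroxide-reducing cysteine.
PRDX1: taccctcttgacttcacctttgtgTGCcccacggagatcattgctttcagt
PRDX2: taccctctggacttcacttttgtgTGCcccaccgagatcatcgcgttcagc
PRDX3: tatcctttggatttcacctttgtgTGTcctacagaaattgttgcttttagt
PRDX4: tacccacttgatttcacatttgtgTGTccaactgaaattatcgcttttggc

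PRDX1 and PRDX2 encode the same 17 residues here and differ at 6 of 51 bases, all 6 at the last base of a codon. PRDX2 and PRDX3 share 16 of the 17 residues and differ at 14 bases, of which 12 are last bases. G and C make up 54.9% of the bases shown for PRDX2, 49.0% for PRDX1, 39.2% for PRDX4 and 35.3% for PRDX3. The catalytic windows of TXNRD1, PRDX6 and GPX1 hold 63.3%, 60.8% and 60.8%. Those of PRDX5, GPX4 and TXN hold 58.8%, 52.9% and 46.7%. The lengths differ: the TXNRD1 window has 30 bases, cut by the end of the coding sequence, and that of TXN has 60, against 51 for the others. The whole coding sequence of TXNRD1 has 45.1%. Mini-bulk log2 fold changes, given below, were positive for PRDX2, PRDX5, GPX1 and GPX4 and negative for the other genes, TXNRD1 and PRDX6 included. Whether the GC content of these windows relates to the changes was not tested. The windows of thioredoxin and of the selenoproteins are shown for their catalytic codons. Capitals mark the codons of Cys-Gly-Pro-Cys in TXN, with the paired cysteines at the ends, and the selenocysteine TGA in the others.
TXN: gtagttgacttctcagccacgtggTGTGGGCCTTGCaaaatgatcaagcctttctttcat
TXNRD1: gcaagcatcctccaggctggctgcTGAggt
GPX1: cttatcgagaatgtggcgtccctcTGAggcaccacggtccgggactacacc
GPX4: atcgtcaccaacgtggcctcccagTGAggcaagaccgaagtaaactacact

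On GRCh38 (GENCODE v29) the genes lie apart from each other. PRDX1 is at chr1:45511036-45523047 on the minus strand, PRDX2 at chr19:12796820-12801859 on the minus strand and PRDX3 at chr10:119167703-119178833 on the minus strand. PRDX4 is at chrX:23664262-23686399, PRDX5 at chr11:64318088-64321811 and PRDX6 at chr1:173477266-173488807, all on the plus strand. TXN is at chr9:110243811-110256640 on the minus strand and TXNRD1 at chr12:104215779-104350305 on the plus strand. GPX1 is at chr3:49357171-49358600 on the minus strand, where this annotation types it as a polymorphic pseudogene, and GPX4 is at chr19:1103926-1106791 on the plus strand. The median GC content of a gene's annotated transcripts ran from 35.6% in TXN to 62.8% in GPX4. By the principal transcript alone TXN has 42.8%, and PRDX3 is the lowest at 40.7%. Exons of other genes on the opposite strand cover 24.9% of the exonic bases of PRDX1 and 14.1% of those of PRDX2. Whether the counting used strand is not given in the sources used here, so the values of PRDX1 and PRDX2 are uncertain to that extent. The gene facing PRDX1, MMACHC, received 583 counts over all libraries, against 2172 for PRDX1. The table also lists 19 annotated pseudogene copies of the 10 genes, and these held 31 counts in all, against 9725 on the genes themselves.

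Library totals were 837450 and 1087514 estimated counts in DASHed mini-bulk and 5802855 and 6026257 in untreated mini-bulk. They ran from 1018815 to 1573513 in DASHed cells and from 5545175 to 6008144 in untreated cells. Epithelial markers were present in every library, with 4 to 7 of 7 detected and a summed level of 151 to 4236 CPM, counts scaled to the same library total, although VIL1 had at most 1 count. CDH1 had 0, 0, 1 and 3 counts in DASHed cells 1 to 4, against 1, 2, 4 and 21 in untreated cells 1 to 4. EPCAM had 0 counts in DASHed cell 2. Of 8 markers of blood, endothelial and stromal cells, 0 to 5 were detected at 0 to 30.3 CPM in sum, and CD3E, CD14 and VWF were at 0 throughout. COL1A1 had the most counts of these 8, with 29 in DASHed cell 3, 24 in untreated cell 3 and 11 to 29 in mini-bulk. Since the labels do not trace libraries to separate cultures, the p-values reflect the variation among these libraries alone, and part or all of it may be technical. In mini-bulk libraries, fewer cells with a transcript and less of it per cell cannot be told apart.

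Together the 10 genes took a larger share of all counts after depletion and a share that overlapped between the groups outside rRNA. They held 0.0343% ± 0.00043 of the counts of DASHed mini-bulk and 0.0103% ± 0.0006 of untreated mini-bulk (SD, n = 2 each). In single cells the share was 0.0564% ± 0.00709 in DASHed and 0.0210% ± 0.00451 in untreated libraries (SD, n = 4 each). Outside the rRNA genes and 4 long noncoding RNA genes annotated within the 18S sequence, the genes held 0.0576% ± 0.00248 of the counts in DASHed mini-bulk and 0.0656% ± 0.0143 in untreated mini-bulk. The corresponding shares were 0.0851% ± 0.011 in DASHed cells and 0.0948% ± 0.0138 in untreated cells. The ranges overlapped within each input once rRNA was set aside. In each of the 4 same-numbered pairs of cells that share was lower in the DASHed cell, at 0.0878, 0.0920, 0.0687 and 0.0918% in DASHed cells 1 to 4, against 0.0968, 0.0942, 0.0771 and 0.111% in untreated cells 1 to 4.

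In mini-bulk the genes split. PRDX2 rose after depletion, and PRDX1, PRDX6 and TXN fell, in the quasi-likelihood test of edgeR with TMM factors and Benjamini-Hochberg adjustment over 10083 genes. TMM scales libraries so that most genes do not differ, so these changes are relative to the other genes and not to all counts. Of all genes tested, 9.90% passed as higher and 19.8% as lower in DASHed libraries, against 1 and 3 of the 10 genes. The median log2 fold change was −0.605 over the 10 genes and 0.03 over all tested genes.

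PRDX2, an abundant cytosolic peroxiredoxin, stood at 47.4 and 46.9 TMM-scaled CPM in DASHed libraries, against 25.5 and 21.2 in untreated libraries. Both DASHed values lay above both untreated ones. The log2 fold change was 1.03 (SE 0.25, adjusted p = 0.0145 in edgeR). PRDX1, its cytosolic relative, stood at 34.3 and 29.2 TMM-scaled CPM in DASHed libraries, against 87.8 and 67.9 in untreated libraries. Both DASHed values lay below both untreated ones, with a log2 fold change of −1.28 (SE 0.23, adjusted p = 0.00459 in edgeR). The raw counts behind these values were 101 and 82 for PRDX2 and 73 and 51 for PRDX1 in DASHed libraries. In untreated libraries they were 68 and 68 for PRDX2 and 234 and 218 for PRDX1.

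The order of the levels of PRDX1 and PRDX2 therefore differed between the groups. Per kilobase of the principal transcript, PRDX2 had the highest CPM of the 10 genes in DASHed mini-bulk, at 96.7 ± 3.61, and PRDX1 was second at 51.9 ± 3.57 (SD, n = 2). In untreated mini-bulk, PRDX1 came first at 30.96 ± 0.723 CPM per kilobase and PRDX2 second at 11.7 ± 0.311 (SD, n = 2). The count of PRDX2 divided by that of PRDX1 within a library does not depend on any scaling. That ratio was 1.38 and 1.61 in DASHed mini-bulk and 0.291 and 0.312 in untreated mini-bulk. The cells, described below, gave ratios of 1.30, 6.13, 1 and 0.918 in the DASHed libraries numbered 1 to 4, against 0.391, 1.30, 0.275 and 0.290 in the untreated libraries of the same numbers. Each same-numbered pair, of either input, had the higher ratio in the DASHed library, by 3.17 to 5.15 times. GPX4 over PRDX3, which share no exonic bases with other genes, gave 3.60 and 5.14 in DASHed mini-bulk and 1.02 and 1.45 in untreated mini-bulk. Both ratios were chosen after the values were seen and carry no test.

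**Figure D1:**
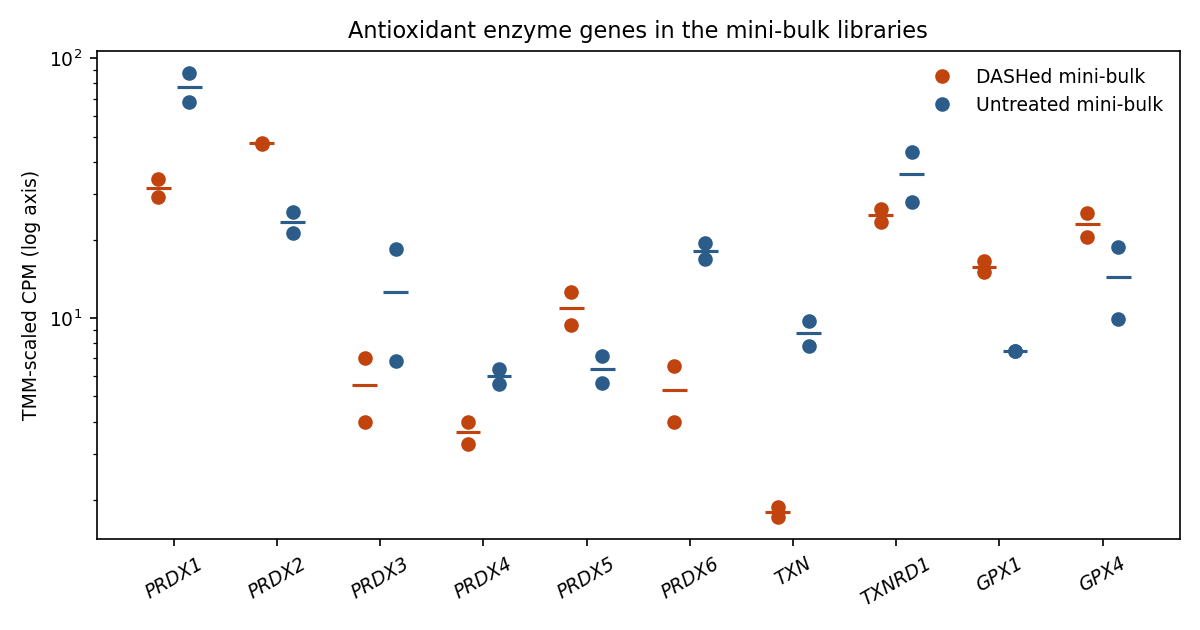
TMM-scaled CPM (log axis) of the 10 genes in the 2 DASHed (left, orange) and 2 untreated (right, blue) mini-bulk libraries; points are libraries and bars their means. PRDX2, PRDX5, GPX1 and GPX4 lie higher in both DASHed libraries, PRDX3 overlaps between the groups, and the other 5 lie lower.

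PRDX6, which has a single catalytic cysteine and uses glutathione, stood at 6.57 and 4.00 TMM-scaled CPM in DASHed libraries, against 19.5 and 16.8 in untreated libraries. The log2 fold change was −1.74 (SE 0.44, adjusted p = 0.0185 in edgeR), and the groups did not overlap. TXN, the electron donor of most peroxiredoxins, stood at 1.88 and 1.72 TMM-scaled CPM in DASHed libraries, against 9.76 and 7.79 in untreated libraries. Its log2 fold change of −2.24 (SE 0.63, adjusted p = 0.0262 in edgeR) was the largest of the 10 in size. It rests on 4 and 3 counts in DASHed libraries, against 26 and 25 in untreated libraries. TXNRD1, which reduces thioredoxin, stood at 23.5 and 26.3 TMM-scaled CPM in DASHed libraries, against 43.5 and 28.0 in untreated libraries. Its log2 fold change of −0.51 (SE 0.30, adjusted p = 0.22 in edgeR) did not pass.

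Neither glutathione peroxidase passed the test. GPX1 stood at 15.02 and 16.6 TMM-scaled CPM in DASHed libraries, against 7.50 and 7.48 in untreated libraries, with a log2 fold change of 1.08 (SE 0.40, adjusted p = 0.0713 in edgeR). The groups did not overlap, and the adjusted p was 0.0456 in edgeR when rRNA genes were left out of the fit. GPX4 stood at 25.35 and 20.6 TMM-scaled CPM in DASHed libraries, against 18.8 and 9.97 in untreated libraries, with a log2 fold change of 0.70 (SE 0.39, adjusted p = 0.196 in edgeR). The untreated libraries differed from each other more than the DASHed ones did.

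The remaining peroxiredoxins had low counts and did not pass. PRDX3, of mitochondria, stood at 7.04 and 4.00 TMM-scaled CPM in DASHed libraries, against 18.4 and 6.85 in untreated libraries, and was the only one of the 10 whose groups overlapped. Its log2 fold change was −1.14 (SE 0.60, adjusted p = 0.177 in edgeR). PRDX4, of the endoplasmic reticulum, had 7 and 7 counts in DASHed libraries, against 17 and 18 in untreated libraries (log2 fold change −0.70, SE 0.59, adjusted p = 0.381 in edgeR). PRDX5, found in mitochondria, peroxisomes and cytosol, had 20 and 22 counts in DASHed libraries, against 15 and 23 in untreated libraries (log2 fold change 0.77, SE 0.47, adjusted p = 0.235 in edgeR). In all, 4 genes had both DASHed values above both untreated ones and 5 had both below, where 31.5% and 36.8% of all tested genes did so.

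The genes with positive and negative values differed in the GC content of their transcripts. The 4 genes with a positive log2 fold change, PRDX2, PRDX5, GPX1 and GPX4, had a median transcript GC content of 58.3 to 62.8%. The 6 genes with a negative one had 35.6 to 51.3%. The same held across the table: of 2485 tested genes with at least the GC content of PRDX2, 94.8% had a positive log2 fold change, and of 4997 with at most that of PRDX4, 84.3% had a negative one. With GC content fitted as an offset, none of the 10 genes passed, while 182 genes rose and 199 fell over the whole table. PRDX1 then kept the lowest adjusted p of the 10 (log2 fold change −0.90, adjusted p = 0.0549 in edgeR). PRDX2 had 0.27 (adjusted p = 0.699 in edgeR), and TXN, at 0.50, changed sign (adjusted p = 0.822 in edgeR). The offset took the median over annotated transcripts, 35.6% for TXN, whose principal transcript has 42.8%. An offset from principal transcripts was not fitted, so the value of TXN rests on that choice.

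**Figure D2:**
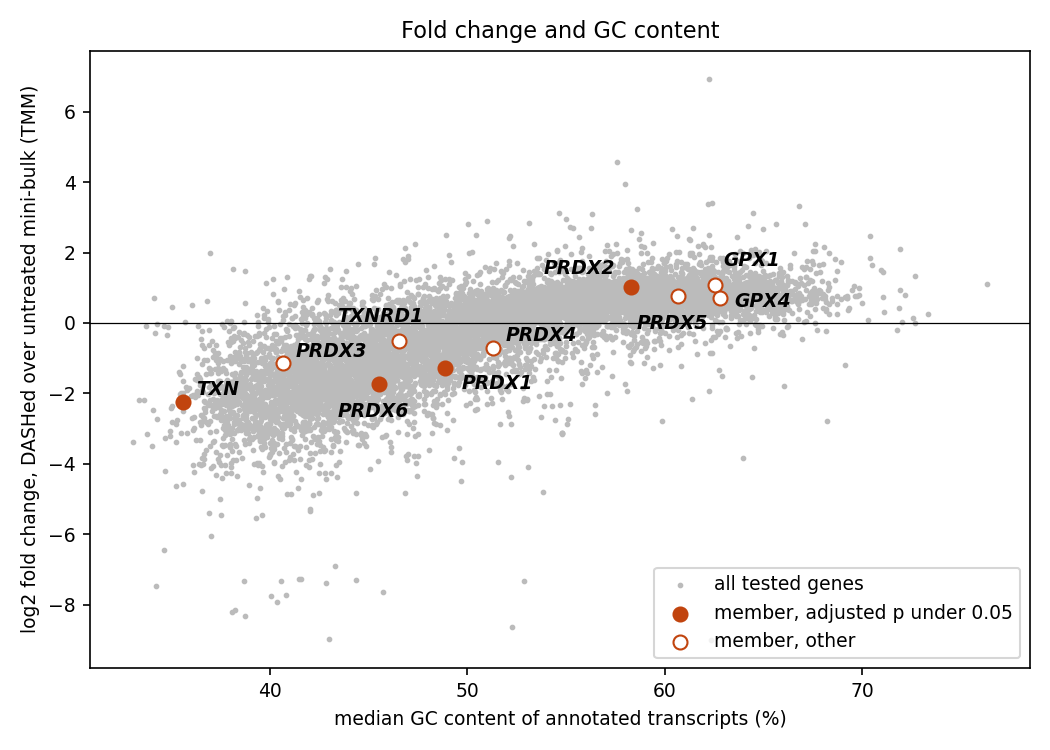
Log2 fold change of DASHed over untreated mini-bulk (TMM, edgeR) against the median GC content of a gene's annotated transcripts, for all tested genes (grey) and the 10 antioxidant genes (orange, filled where the adjusted p was under 0.05). The genes of 58.3% GC or more lie above 0 and those of 51.3% or less below it, within the band of the other genes.

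The directions in mini-bulk depend on the scaling. With library totals alone the median of all genes moved to 2.04, the calls became 6 higher and 0 lower, and PRDX1 turned from lower to higher (log2 fold change 0.76, adjusted p = 0.0402 in edgeR). Of all 10083 genes tested, 6718 were then called higher and 138 lower. PRDX1 passed whichever library was left out, and PRDX3 passed without untreated library 2 alone (log2 fold change −1.92, adjusted p = 0.0364 in edgeR). No call of PRDX2, PRDX6 or TXN survived every omission of 1 library: PRDX2 had adjusted p = 0.0788 in edgeR without untreated library 1 and 0.288 without untreated library 2, PRDX6 had 0.0701 without DASHed library 2 and 0.0606 without untreated library 1, and TXN had 0.0594 without DASHed library 1 and 0.0743 without DASHed library 2.

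The single cells asked the same question in 4 DASHed and 4 untreated libraries. Each is 1 cell, so a group counts as 1 sample and was not tested. Cells that carry the same number in the 2 groups varied together over 7841 genes (r = 0.93 to 0.94 between their deviations from the group means). The labels leave unstated whether both libraries of a number were made from 1 cell. Ratios are of the summed CPM, with exact 95% intervals that cover counting error only. They are read against the median ratio of 2.195 over 13509 genes with at least 20 counts. That median was taken with 1 CPM added to both sums, which draws the ratios of low genes toward 1. The ratios given for each gene have nothing added, so the median is a low mark for them. Ratios within a pair of cells had 1 CPM added to each cell.

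The summed CPM of all 10 genes was higher in DASHed than in untreated cells, although the interval of PRDX3 includes a ratio of 1, and only some of the genes exceeded the median gene. PRDX2 had 97.3, 235, 47.5 and 114 CPM in DASHed cells 1 to 4, against 20.1, 54.3, 9.65 and 22.9 CPM in untreated cells 1 to 4. Each DASHed cell was above the untreated cell of its number, and the groups overlapped. The ratio of summed CPM was 4.32 (3.86 to 4.84), or 0.94 above the median gene on a log2 scale with 1 CPM added. GPX1 had the highest ratio, 5.82 (5.07 to 6.67), and GPX4 had 3.84 (3.42 to 4.31). For PRDX2, GPX1 and GPX4 the ratio exceeded 2.195, the median of the summed cells, in 4 of 4 same-numbered pairs. The GPX1 pair numbered 2 rests on 2 counts in the DASHed and 1 in the untreated cell. PRDX5 had a ratio of 5.16 (3.33 to 8.04) from 49 counts in DASHed cells, against 40 in untreated cells, and exceeded that median in 3 of 4 pairs. Of those 49 counts, 28 were in DASHed cell 1.

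PRDX3 had 38, 38, 16 and 51 counts in DASHed cells 1 to 4, against 112, 230, 53 and 136 in untreated cells 1 to 4. Its ratio, 1.13 (0.936 to 1.37), was the lowest of the 10. PRDX1 had a ratio of 1.44 (1.29 to 1.61) and TXN one of 1.75 (1.37 to 2.21). In every pair these 3 genes lay below 2.195, the median ratio of the summed cells and not of the pairs. Against the median of the average over pairs, PRDX1 and PRDX3 were at −0.21 and −0.32 on the log2 scale and TXN at 0.0062. PRDX6, TXNRD1 and PRDX4 had ratios of 1.86 (1.54 to 2.22), 2.29 (1.95 to 2.69) and 2.64 (2.23 to 3.12). With 1 CPM added, TXNRD1 and PRDX4 were at 0.021 and 0.21 relative to the median gene on the log2 scale. With 0.1 CPM added to all genes they were at −0.16 and 0.038.

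At a threshold of 1.5-fold from the median gene, PRDX2, PRDX5, GPX1 and GPX4 were above it, and PRDX1 and PRDX3 below it. That is 4 and 2 of the 10, where 31.0% and 34.2% of all genes were above and below. The log2 values of PRDX1 and PRDX3 relative to the median were −0.61 and −0.96. Averaged over same-numbered pairs, against that average's own median, they were −0.21 and −0.32, so that 4 genes were above and 0 below the threshold, and TXN was at 0.0062. Of all 13509 genes, 3908 were above and 3287 below in that average. With no centring 8 genes were above and 0 below, and with each gene set against genes of like expression 1 was above and 4 below. Of all 13509 genes, 8764 were above and 1180 below with no centring, and 2325 and 3654 against genes of like expression. With the GC trend removed none of these 6 genes was past the threshold, at −0.40 for PRDX1, 0.22 for PRDX2, 0.15 for PRDX3, −0.053 for PRDX5, 0.54 for GPX1 and −0.020 for GPX4. TXN, at −0.38 before that step, was then the 1 gene above it, at 1.19. For TXN that step also used the median GC content of 35.6%, where its principal transcript has 42.8%. Of all 13475 genes with a GC value, 2338 were above and 2798 below after that step. PRDX2 and GPX1 were above the threshold whichever cell was left out. PRDX5 was not without DASHed cell 1 (0.077), untreated cell 3 (0.52) or untreated cell 4 (0.46), nor GPX4 without DASHed cell 2 (0.49) or untreated cell 1 (0.49). PRDX3 was not below it without DASHed cell 3 (−0.51), nor PRDX1 without DASHed cell 1 (−0.55), 2 (−0.40) or 3 (−0.27) or untreated cell 4 (−0.45).

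**Figure D3:**
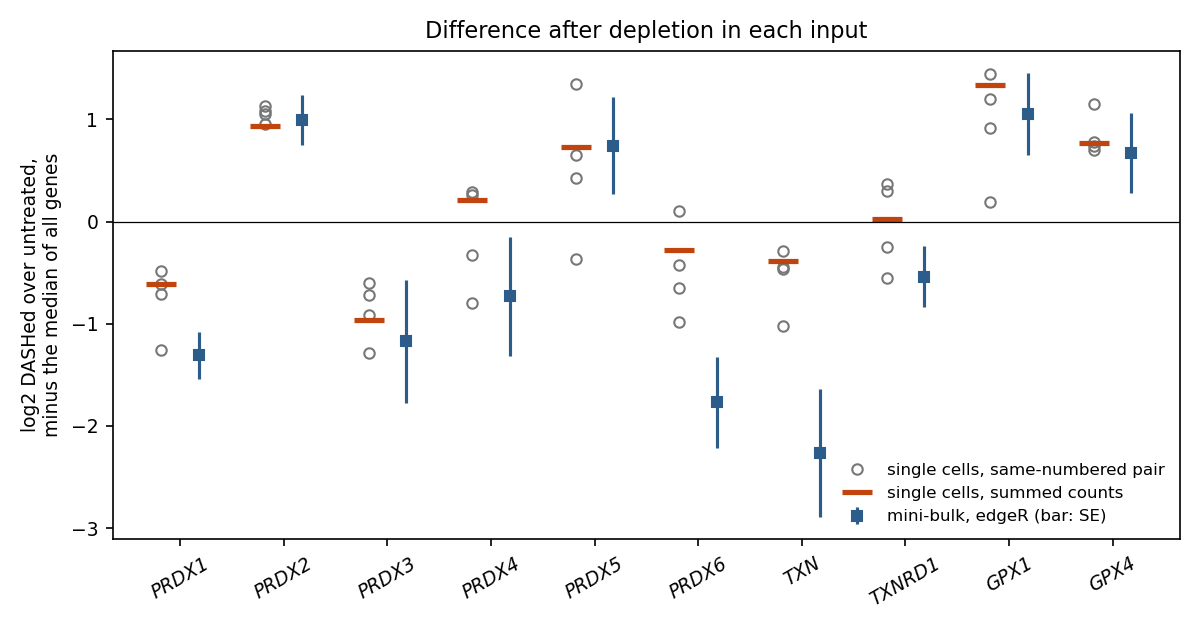
Log2 of DASHed over untreated, minus the median of all genes, for each gene: same-numbered cell pairs (open circles), summed cells (orange bars) and mini-bulk (blue squares, bars give the SE). PRDX2, GPX1 and GPX4 lie above 0 in the summed cells, all cell pairs and mini-bulk, and PRDX1, PRDX3 and TXN below 0 in all of them, with the median of the summed cells subtracted from each pair. Against the median of the average over pairs, which is not drawn, TXN was at 0.0062.

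Within a group, the highest cell exceeded the lowest by 2.26 to 186 times in CPM, depending on the gene and group. GPX1 varied most. It had 271, 2, 218 and 13 counts in DASHed cells 1 to 4, against 193, 1, 164 and 7 in untreated cells 1 to 4. Cells 1 and 3 were high and cells 2 and 4 low in both groups. Cell 1 exceeded cell 2 by 104 times (28.6 to 864) in CPM among DASHed cells and by 186 times (33.0 to 7379) among untreated cells, with intervals that are wide because the lower cells held 2 counts and 1. The coefficient of variation was 113% in DASHed and 111% in untreated cells.

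GPX4 did not share that pattern. It had 56, 205, 115 and 195 counts in DASHed cells 1 to 4, against 62, 309, 115 and 140 in untreated cells 1 to 4. Cell 2, which was lowest for GPX1, was highest for GPX4 in both groups, and cell 1 was lowest. PRDX2 and PRDX3 were also highest in cell 2 and lowest in cell 3 in both groups.

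PRDX1, PRDX4 and TXN were highest in cell 4 in both groups. For TXN the counts were 25, 12, 9 and 56 in DASHed cells 1 to 4, against 65, 39, 32 and 110 in untreated cells 1 to 4. PRDX4 was 12.6 times (5.94 to 31.9) as high in cell 4 as in cell 2 among DASHed cells, and 6.04 times (4.06 to 9.28) among untreated cells. PRDX6 was highest in cell 3, with 111 of its 174 counts in DASHed cells and 180 of its 395 in untreated cells. PRDX1 was the steadiest among untreated cells, with a coefficient of variation of 37.4%, and had 54.4% in DASHed cells.

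The cell with the highest CPM had the same number in both groups for 9 of the 10 genes, where 77.4% of all genes did so. The exception was TXNRD1, highest in cell 2 among DASHed cells and in cell 4 among untreated cells. None of the 10 had all DASHed cells above or all below the untreated cells in CPM, relative to the median gene, where 1.44% of all genes were above and 3.32% below.

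**Figure D4:**
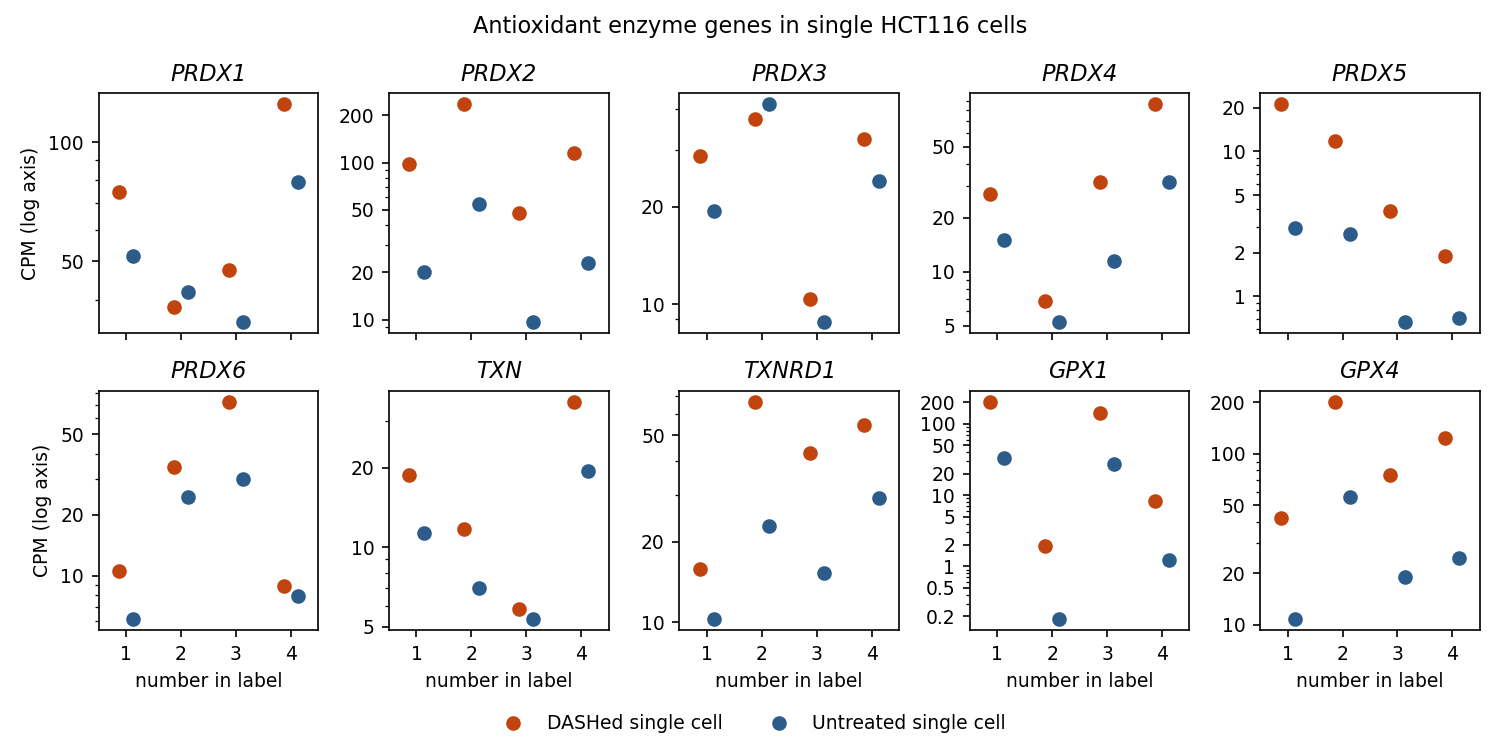
CPM (log axis, a separate scale for each gene) in the DASHed (left, orange) and untreated (right, blue) single cell of each label number. High and low cells have the same numbers in both groups for most genes, and GPX1 spans the widest range, with cells 1 and 3 far above cells 2 and 4.

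The gene with the highest level per kilobase was the same in cells as in mini-bulk of the same treatment. PRDX2 had the highest mean CPM per kilobase in DASHed cells, 125 ± 80.4, followed by GPX4 at 120 ± 75.2, GPX1 at 77.4 ± 87.2 and PRDX1 at 57.7 ± 31.4 (SD, n = 4). In untreated cells PRDX1 came first at 42.1 ± 15.7, followed by GPX4 at 30.02 ± 21.3 and PRDX2 at 27.1 ± 19.5 (SD, n = 4). These neighbours lie within each other's spread over cells. PRDX5 was last in both groups, at 10.8 ± 9.78 in DASHed and 1.97 ± 1.39 in untreated cells.

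Of 69 other genes of the peroxide, glutathione, superoxide, NRF2 and selenoprotein pathways, 52 were tested in mini-bulk, 9 rose and 10 fell (edgeR, adjusted p under 0.05), with a median log2 fold change of 0.08. Of all tested genes 9.90% rose and 19.8% fell, so the share of these genes that fell was near that of the table and the share that rose was above it. The thioredoxin system had 1 of 10 tested genes rise (NXN) and 1 fall (TXNL1). In the glutathione system 0 of 15 rose and 2 fell, the microsomal transferase MGST1 and the cystine transporter SLC7A11. Both superoxide dismutases, SOD1 and SOD2, fell among 3 tested genes of their list.

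SOD2, the mitochondrial superoxide dismutase, stood at 13.6 and 10.9 TMM-scaled CPM in DASHed libraries, against 77.3 and 68.2 in untreated libraries (log2 fold change −2.54, SE 0.26, adjusted p = 0.000285 in edgeR). MGST1 had a log2 fold change of −2.42 (SE 0.47, adjusted p = 0.00618 in edgeR). SOD1 and SOD2 were the only genes of these lists that passed with GC content as an offset, both as lower. The name SOD2 belongs to more than 1 GENCODE gene, so its overlap with other genes was not assessed and its value is uncertain.

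Among regulators and targets of NRF2, a transcription factor of the oxidative stress response, 5 of 12 tested genes rose and 2 fell, where 9.90% and 19.8% of all tested genes did. Those that fell were NFE2L2, which encodes NRF2 and is uncertain because 20.9% of its exonic bases lie in other genes, and BACH1, a repressor of the same target sites (log2 fold change −2.94, SE 0.66, adjusted p = 0.0108 in edgeR). The rises included PGD and TKT, enzymes of the pentose phosphate pathway. TKT had a log2 fold change of 1.01 (SE 0.17, adjusted p = 0.00382 in edgeR). The ferritin light chain FTL stood at 369 and 350 TMM-scaled CPM in DASHed libraries, against 170 and 136 in untreated libraries (log2 fold change 1.24, SE 0.16, adjusted p = 0.00112 in edgeR), but it has 16 annotated pseudogenes and is uncertain.

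The genes that insert selenocysteine moved both ways. EEFSEC, the elongation factor for selenocysteine, rose (log2 fold change 1.35, SE 0.43, adjusted p = 0.0419 in edgeR), and SECISBP2, which binds the selenocysteine insertion element, fell, among 5 tested. Of 7 other selenoproteins tested, SELENON and SELENOW rose and SELENOF and SELENOT fell. SELENON had a log2 fold change of 0.89 (SE 0.17, adjusted p = 0.00621 in edgeR). EEFSEC and SELENON share 15.3% and 15.01% of their exonic bases with other genes and are uncertain. In single cells 56 of the 69 genes had at least 20 counts, of which 20 were past 1.5-fold above the median gene and 14 past it below, where 31.0% and 34.2% of all genes were.

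The genes whose profile over the 12 libraries was most like those of the 3 most abundant members were found by the root mean square difference of centred log2 (CPM + 1), over 1801 genes. MLST8 was nearest to PRDX2, at 0.244, where the median gene was at 0.977. CSNK2A1 was nearest to PRDX1, at 0.239 (median gene 1.15), and ARFGAP1 to GPX4, at 0.353 (median gene 1.03). The 12 libraries share rRNA content, depth and cell number as sources of variation, so this likeness is a description of the profiles.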

How the data were processed

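The deposited table holds estimated counts for each gene, unscaled, in 12 columns. The submitters' processing notes name kallisto 0.46.2. Not given in the sources used here are the build, annotation, strand setting and gene summing. Estimated counts were rounded before testing, and GENCODE v29 (57079 names matched) supplied loci, sequences and GC content. Mini-bulk libraries, 2 DASHed and 2 untreated, were fitted with edgeR 4.0.16 (R 4.3.3): TMM, the default expression filter, quasi-likelihood test, Benjamini-Hochberg adjustment over all genes at 0.05. TMM factors were 1.96 and 2.09 in DASHed and 0.442 and 0.553 in untreated libraries. Single cells had no test. Their log2 ratios of summed CPM used a pseudocount of 1 CPM, kept genes of 20 or more counts and were centred on the median gene. Intervals are exact, at 95%, and cover counting error only. DESeq2 1.42.0 and the other alternatives are given in the closing section, and the fits were tested on simulated data.

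Members and lists were chosen with earlier results of these data known. The genes named from the pathway lists were, by rule, the 3 largest rises and the 3 largest falls among those that passed. The rule also took the 3 highest levels among those tested. Other genes are named, after their values were seen, where a count of a list was 5 or fewer. A listed gene that passed is not named here. A gene was called uncertain where at least 10% of its exonic bases lie in other genes, or where the name has many pseudogenes or more than 1 GENCODE identifier. Same-numbered single cells correlated at 0.93 to 0.94 and different numbers at −0.393 to −0.225, over 7841 genes, so the numbers were taken to pair the cells, from the data alone. Centring on group means forces the negative values where same-numbered cells correlate.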

Additional observations from a re-analysis of the deposited data

How the results depend on the processing

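In mini-bulk, 4 of the 10 genes were called (1 higher, 3 lower) with TMM, with the size factors of DESeq2 inside edgeR and without an expression filter. Leaving out rRNA genes gave 5 (2 higher, 3 lower), DESeq2 gave 2 (1 higher, 1 lower) and totals alone gave 6 (6 higher, 0 lower). Over all tested genes, leaving out rRNA genes gave 1242 higher and 2103 lower of 9196. DESeq2 gave 771 higher and 1064 lower of 9264, and totals alone 6718 and 138 of 10083. The GC offset gave 0 (0 higher, 0 lower), and leaving out 1 library gave 1 to 3 (0 to 1 higher, 1 to 3 lower), with 8 of the 10 genes tested where an untreated library was left out, since PRDX4 and TXN then missed the expression filter. The mini-bulk numbers correlated at 0.559 over 6699 genes, but 2 pairs do not show that they pair the libraries. The replicate block gave 8 calls (3 higher, 5 lower), and the block with the GC offset 1 (0 higher, 1 lower). Of all 10083 genes tested, the block called 2359 higher and 3044 lower, and the block with the GC offset 641 and 651. The other pathway genes had 19 calls (9 higher, 10 lower), against 35 with totals alone (35 higher, 0 lower), 2 with the GC offset (0 higher, 2 lower), 31 with the replicate block (17 higher), 4 with the block and the GC offset (2 higher, 2 lower), and 9 to 22 leaving out 1 library (1 to 12 higher, 8 to 12 lower).

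Directions turned with the GC offset for PRDX3 (log2 fold change 0.77), PRDX5 (−0.042), TXN (0.50), TXNRD1 (0.33) and GPX4 (−0.13), and with the block and the GC offset for PRDX3 (0.74), PRDX5 (−0.034), TXN (0.49), TXNRD1 (0.33) and GPX4 (−0.12). They turned with totals alone for PRDX1 (0.76), PRDX3 (0.92), PRDX4 (1.31), PRDX6 (0.27) and TXNRD1 (1.54), where the median of all genes moved to 2.04. PRDX6 and TXN lost their calls in DESeq2 (adjusted p = 0.107 and 0.166). The cause of the other differences was not tested.

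In single cells, 6 genes passed 1.5-fold (4 higher, 2 lower). No centring gave 8 higher and 0 lower, the running median by expression 1 and 4, and a minimum of 100 counts 1 and 4. Pairs of same-numbered cells gave 4 and 0, and removal of the GC trend 1 in all (1 higher, 0 lower), which was TXN. A pseudocount of 0.1 CPM gave 3 higher and 2 lower, with GPX4, at 0.58, just short of the threshold. Of all 13509 genes, no centring gave 8764 higher and 1180 lower, the running median 2325 and 3654, and pairs 3908 and 3287. The pseudocount of 0.1 CPM gave 4174 higher and 4883 lower of the same genes. The minimum of 100 counts gave 1657 higher and 2880 lower of 8757 genes. Removal of the GC trend gave 2338 higher and 2798 lower of 13475 genes. Leaving out 1 cell gave 4 to 7 (3 to 4 higher, 1 to 3 lower), where 3521 to 4613 of 12651 to 13357 genes were higher and 4245 to 4784 lower. Among the 6 genes that passed 1.5-fold, directions turned without centring for PRDX1 (0.52) and PRDX3 (0.17), with the running median for GPX4 (−0.074), and with the GC trend removed for PRDX3 (0.15), PRDX5 (−0.053) and GPX4 (−0.020). Of the other 4, TXN turned without centring (0.75), with the GC trend removed (1.19) and in pairs (0.0062), and PRDX6 did so too (0.85, 0.33 and 0.070). PRDX4 and TXNRD1 turned with the running median (−0.37 and −0.57) and the minimum of 100 counts (−0.19 and −0.38), and TXNRD1 with a pseudocount of 0.1 CPM (−0.16). Leaving out 1 cell turned each of these 4 genes in at least 1 case. PRDX5 gave no value at a minimum of 100 counts. Depth limits TXN in DASHed mini-bulk (4 and 3 counts) and GPX1 in cell 2 (2 counts in the DASHed and 1 in the untreated library).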
